A study of Mus musculus with 12 samples.

Results

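The astrocyte genes described here are 33 rows of a mouse RNA-seq count table of 54532 genes, chosen by symbol. Of these, 18 are identity genes, which mark astrocytes in the resting brain, and 15 are reactivity genes, which astrocytes are known to raise after injury or inflammation. Astrocytes clear glutamate and potassium from around synapses, line blood vessels with their endfeet and feed neurons with metabolites. In a reactive state they build up intermediate filaments such as Gfap and secrete acute phase and matrix proteins, a response known to run in part through gp130 receptors and the transcription factor Stat3. Most reactivity genes are not specific to astrocytes, since endothelial cells, microglia and meningeal cells express several of them.

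The tissue was ventral hippocampus of wild-type mice, with 12 libraries in 4 groups of 3. In SSDS-shACOT12 mice the enzyme ACOT12, which splits acetyl-CoA into acetate, was knocked down in the liver and the mice had SSDS. In SSDS-GFP mice SSDS was combined with the AAV8-eGFP virus, CSDS mice had CSDS alone, and Control mice were left untreated. The labels give CSDS and SSDS as abbreviations only, commonly read as chronic social defeat stress and subthreshold social defeat stress. The SSDS exposure is shared by both SSDS groups. Their column names in the count table both contain TBG, a term usual for a hepatocyte promoter, with GFP in one group and shACOT12 in the other. SSDS-GFP differs from Control in both virus and stress, which cannot be told apart. Whether each library comes from its own animal is not stated, and the p-values therefore reflect only how these libraries spread.

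Library totals ran from 14656714 to 17694570 counts. Of the 12 libraries, 3 stood apart. On the first principal component of all tested genes, with 31.3% of the variance, SSDS-shACOT12 3 lay at 63.1, SSDS-shACOT12 1 at 37.4 and SSDS-GFP 3 at 35.7, and the highest of the other 9 libraries was 5.82. The share of counts from the mitochondrial genome was 3.23% for SSDS-shACOT12 1, 4.31% for SSDS-shACOT12 3 and between 6.31% and 9.24% elsewhere. In bulk tissue, fewer astrocytes and less RNA of a gene per astrocyte cannot be told apart.

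As a set the identity genes differed little in level between libraries, and the summed level of the reactivity genes was high in a single library. All 18 identity genes had counts in every library, and the summed identity level ran from 7672 to 8743 CPM (counts scaled to a common library size) in SSDS-shACOT12, from 7754 to 8679 in SSDS-GFP, from 8016 to 8587 in CSDS and from 7885 to 9617 in Control. The summed level of the 15 reactivity genes was 541, 346 and 1490 CPM in SSDS-shACOT12 1, 2 and 3, while it ran from 407 to 497 CPM in SSDS-GFP, from 385 to 525 in CSDS and from 482 to 526 in Control. All 4 ranges of the identity sum overlapped. Only SSDS-shACOT12 3 lay far above the rest in the reactivity sum, and Gfap made up 80.0% of it there and 63.0% to 73.1% elsewhere.

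Of the 30 members with enough counts to be tested, 18 identity and 12 reactivity genes, edgeR's quasi-likelihood test called 0 at an adjusted p under 0.05 in each of 3 comparisons. For SSDS-shACOT12 against SSDS-GFP, 1 member had an unadjusted p under 0.05, beside 4.53% of all 16915 tested genes, and 0% of them were called. For SSDS-GFP against Control, 5 members had such a p beside 15.2% of all genes, with 0.0946% called. For CSDS against Control, 2 members had such a p beside 5.87% of all genes, with 0% called. These shares of members are near the background, and the DESeq2 Wald test called 1 member in SSDS-GFP against Control and 0 in the others. Limma-trend on FPKM called 0 members in each.

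Members whose groups did not overlap were counted as well. In SSDS-shACOT12 against SSDS-GFP there were 0, beside 4.81% of all genes (2.23% higher and 2.58% lower). In SSDS-GFP against Control, Slc1a2, Slc4a4, Gfap and Cp were lower in every SSDS-GFP library than in any Control library, beside 23.9% of all genes without overlap (12.5% higher and 11.4% lower). In CSDS against Control, Slc1a2, Slc4a4 and Atp1b2 were lower in every CSDS library and S100b was higher, beside 20.3% of all genes without overlap (10.2% higher and 10.1% lower). Both comparisons with Control share the 3 Control libraries.

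**Figure D1:**
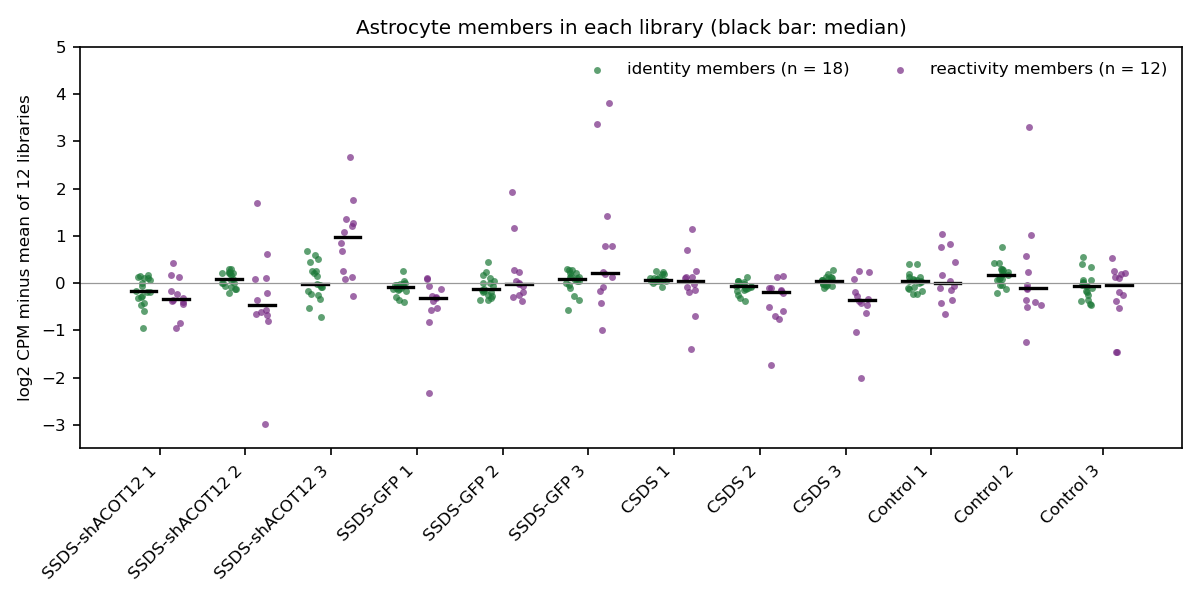
Each point is a tested member, plotted as its log2 CPM in a library minus its mean over all 12 libraries (vertical axis), with identity members left and reactivity members right within each library and black bars at the medians. Identity members lie between -0.95 and 0.77 in every library, while the reactivity median reaches 0.97 in SSDS-shACOT12 3 and single reactivity points reach 3.82 in SSDS-GFP 3 and 3.30 in Control 2.

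Per length, the identity genes covered a wide range. Their mean level over the 12 libraries was 493 FPKM (fragments scaled by gene length and library size) for Sparcl1, a secreted matrix protein known to promote synapse formation, 376 FPKM for the glutamine synthetase gene Glul, 273 FPKM for the glycolytic aldolase Aldoc, 226 FPKM for the secreted chaperone Clu and 157 FPKM for the glutamate transporter Slc1a2. The lowest were the transcription factor Sox9 at 4.48 FPKM, the heparan sulphate proteoglycan Gpc5 at 7.20 FPKM and the folate enzyme Aldh1l1 at 9.76 FPKM. Gfap led the reactivity genes with 91.4 FPKM, before Serpina3n with 28.4 and Vim with 11.0 FPKM. The next was S1pr3 with 2.16 FPKM, and the other 11 lay at or below 1.15 FPKM. Most reactivity genes were therefore measured near the bottom of the range in this tissue.

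Slc1a2 and Slc1a3 encode GLT-1 and GLAST, the glutamate transporters that remove most synaptic glutamate. Slc1a2 (ENSMUSG00000005089, chr2:102658659-102790784 in mm10, the build of all gene coordinates given here) had 1678, 2163 and 2055 CPM in SSDS-shACOT12, 1913, 2086 and 2028 in SSDS-GFP, 2085, 2041 and 2113 in CSDS, and 2211, 2451 and 2180 in Control. Slc1a3 had 396, 486 and 380 CPM in SSDS-shACOT12, 414, 405 and 490 in SSDS-GFP, 519, 421 and 476 in CSDS, and 471, 558 and 473 in Control. The Control libraries were the 3 highest for Slc1a2, by small steps, and all groups overlapped for Slc1a3. Neither gene had an unadjusted p under 0.05 in any comparison.

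Slc4a4, the bicarbonate cotransporter of astrocytes (ENSMUSG00000060961, chr5:88886818-89239653), had the smallest unadjusted p of the identity genes. It had 102, 117 and 75.6 CPM in SSDS-shACOT12, 111, 128 and 103 in SSDS-GFP, 148, 121 and 142 in CSDS, and 166, 151 and 165 in Control. All 9 libraries of the other groups lay below the 3 Control libraries, and SSDS-GFP overlapped with both SSDS-shACOT12 and CSDS. The mean was 114 ± 12.8 CPM in SSDS-GFP and 161 ± 8.17 CPM in Control (SD, n = 3 each), which is -0.49 ± 0.16 on the log2 scale (SE), with an adjusted p of 0.175 in edgeR. The CSDS mean was 137 ± 14.0 CPM. The lowest value, 75.6 CPM, belonged to SSDS-shACOT12 3.

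S100b, a calcium-binding protein of astrocytes (ENSMUSG00000033208, chr10:76253853-76261159), ran the other way. It had 110, 128 and 123 CPM in SSDS-shACOT12, 133, 99.6 and 121 in SSDS-GFP, 119, 111 and 109 in CSDS, and 94.0, 107 and 85.1 in Control. CSDS and SSDS-shACOT12 lay above all Control libraries, and SSDS-GFP 2 overlapped with them. The log2 fold change of SSDS-GFP against Control was 0.31 ± 0.13 (SE, adjusted p = 0.305 in edgeR). S100b is also expressed by some oligodendrocyte lineage cells. The summed oligodendrocyte marker level ran from 5894 to 9595 CPM in SSDS-GFP and from 5564 to 7493 CPM in Control, and its part in the S100b values was not tested.

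**Figure D2:**
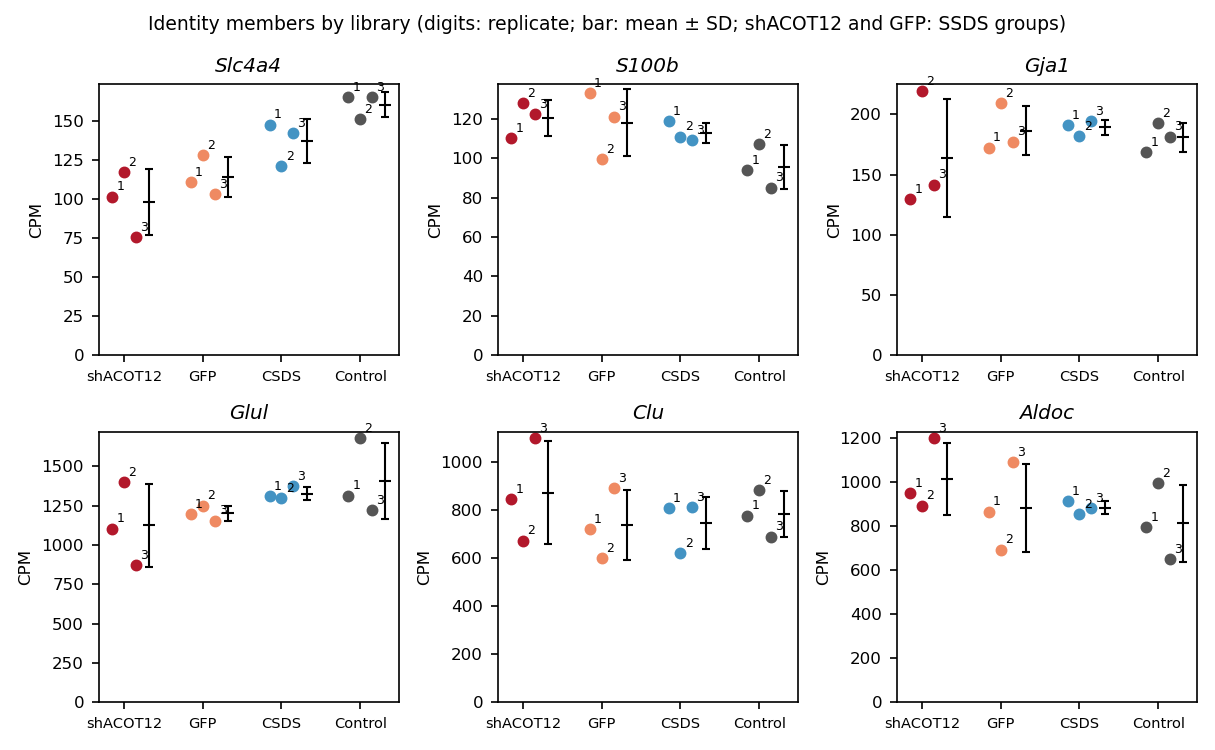
CPM of 6 identity members (vertical axes, starting at 0) in each library of the 4 groups, with the replicate number beside each point and the mean ± SD (n = 3) as a bar. Slc4a4 lies above 150 CPM in the Control libraries and below it in the other 9, while Clu and Aldoc are highest, and Glul and Slc4a4 lowest, in SSDS-shACOT12 3.

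Aqp4, the water channel of endfeet, had 60.4, 106 and 76.8 CPM in SSDS-shACOT12, 93.1, 124 and 71.1 in SSDS-GFP, 103, 81.2 and 92.7 in CSDS, and 92.8, 78.6 and 133 in Control. Aldh1l1, which is used as a pan-astrocyte marker, had 45.8, 43.7 and 70.1 CPM in SSDS-shACOT12, 35.9, 36.0 and 48.7 in SSDS-GFP, 46.3, 41.6 and 42.4 in CSDS, and 37.0, 54.0 and 33.8 in Control. All groups overlapped for both genes. Aldh1l1 was higher in SSDS-shACOT12 than in the SSDS-GFP library of the same replicate number in all 3 pairs. The difference on the log2 scale was 0.40 ± 0.21 (SE, adjusted p = 0.803 in edgeR), and 0.39 ± 0.12 (SE, adjusted p = 0.507, unadjusted p = 0.0122 in edgeR) under the replicate block among these 6 libraries. It was the member with an unadjusted p under 0.05 in that fit, where Gfap was not. Slc4a4 was lower in all 3 pairs, at -0.24 ± 0.13 (SE, adjusted p = 0.624 in edgeR) on the log2 scale under the block. Among the other tested members, Aldoc, Ntsr2, Atp1b2, Clu, Osmr and S1pr3 were also higher in all 3 pairs, and Cp was lower. The share of all genes with the same direction in all 3 pairs was not counted. Nor was the share of all genes with an unadjusted p under 0.05 in the block fit. These pair directions were picked after their values were seen and are a description only. The lowest Aqp4 value was in SSDS-shACOT12 1 and the highest Aldh1l1 value in SSDS-shACOT12 3.

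The other 12 identity genes had no unadjusted p under 0.05 in any comparison without the block. The connexins Gja1 and Gjb6, which couple astrocytes through gap junctions, ran from 130 to 220 CPM for Gja1 and from 36.5 to 86.4 CPM for Gjb6 over the 12 libraries. Glul ran from 870 to 1678 CPM, Aldoc from 650 to 1202, Clu from 601 to 1101 and Sparcl1 from 1286 to 1685. The fibroblast growth factor receptor Fgfr3 ran from 69.0 to 124 CPM, the neurotensin receptor Ntsr2 from 108 to 195, Gpc5 from 16.3 to 39.3 and Sox9 from 12.2 to 24.2. Atp1b2, a subunit of the sodium pump, ran from 278 to 366 CPM, and Mlc1, a membrane protein of endfeet, from 156 to 234. Atp1b2 and Slc1a2 had the smallest spread, with an SD within groups of 0.10 and 0.11 on the log2 scale, and 4.13% and 6.20% of all tested genes had a smaller one. Gjb6 had the largest among identity genes, at 0.37.

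Gfap, the intermediate filament protein whose increase is the usual sign of reactive astrocytes (ENSMUSG00000020932, chr11:102887336-102900912), had 396, 221 and 1192 CPM in SSDS-shACOT12, 322, 267 and 313 in SSDS-GFP, 380, 247 and 291 in CSDS, and 361, 323 and 381 in Control. Among the 12 libraries SSDS-shACOT12 3 stood out, at 3.70 times their median, and SSDS-shACOT12 2 was the lowest of all. The means were 603 ± 518 CPM in SSDS-shACOT12 and 301 ± 29.1 CPM in SSDS-GFP (SD, n = 3 each), a difference of 1.00 ± 0.43 on the log2 scale (SE, adjusted p = 0.803 in edgeR). Without SSDS-shACOT12 3 this log2 fold change was 0.04, and without SSDS-shACOT12 2 it was 1.39 with an adjusted p of 0.031. By replicate number, the ratio of SSDS-shACOT12 to SSDS-GFP was 1.23, 0.825 and 3.81, so the direction differed between pairs. Under the replicate block among these 6 libraries the log2 fold change was 0.64 ± 0.36 (SE, adjusted p = 0.623 in edgeR).

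Mean Gfap levels of SSDS-GFP and CSDS lay slightly below that of Control. SSDS-GFP averaged 301 ± 29.1 CPM and Control 355 ± 29.7 CPM, and the log2 fold change was -0.24 ± 0.42 (SE, adjusted p = 0.832 in edgeR) although the groups did not overlap. CSDS averaged 306 ± 67.5 CPM against the same Control libraries, and the log2 fold change was -0.22 ± 0.42 (SE, adjusted p = 0.978 in edgeR) with overlapping groups. The interval for CSDS ran from -1.13 to 0.70 on the log2 scale. This interval includes no change, so the direction of a Gfap change in CSDS is not settled with these libraries. The fit shares its estimate of the spread over all 12 libraries. On the log2 scale the SD of Gfap was 1.24 in SSDS-shACOT12, a group outside both comparisons with Control. It was 0.14 in SSDS-GFP, 0.31 in CSDS and 0.12 in Control.

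Vim, the filament protein vimentin that astrocytes, endothelial and meningeal cells all make, had 38.0, 43.0 and 120 CPM in SSDS-shACOT12, 47.4, 41.2 and 85.4 in SSDS-GFP, 53.9, 45.9 and 36.7 in CSDS, and 44.4, 38.7 and 41.3 in Control. SSDS-shACOT12 3 and SSDS-GFP 3 were the highest libraries, and Vim was thus high in SSDS-GFP 3 where Gfap was not. All groups overlapped, and no comparison had an unadjusted p under 0.05.

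Serpina3n, a secreted serine protease inhibitor used as a general marker of reactive astrocytes, had 74.9, 37.6 and 119 CPM in SSDS-shACOT12, 60.4, 55.3 and 28.1 in SSDS-GFP, 49.3, 61.3 and 44.1 in CSDS, and 52.0, 65.9 and 65.0 in Control. It was highest in SSDS-shACOT12 3, as Gfap and Vim were, but lowest in SSDS-GFP 3, where Vim was high. All groups overlapped.

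**Figure D3:**
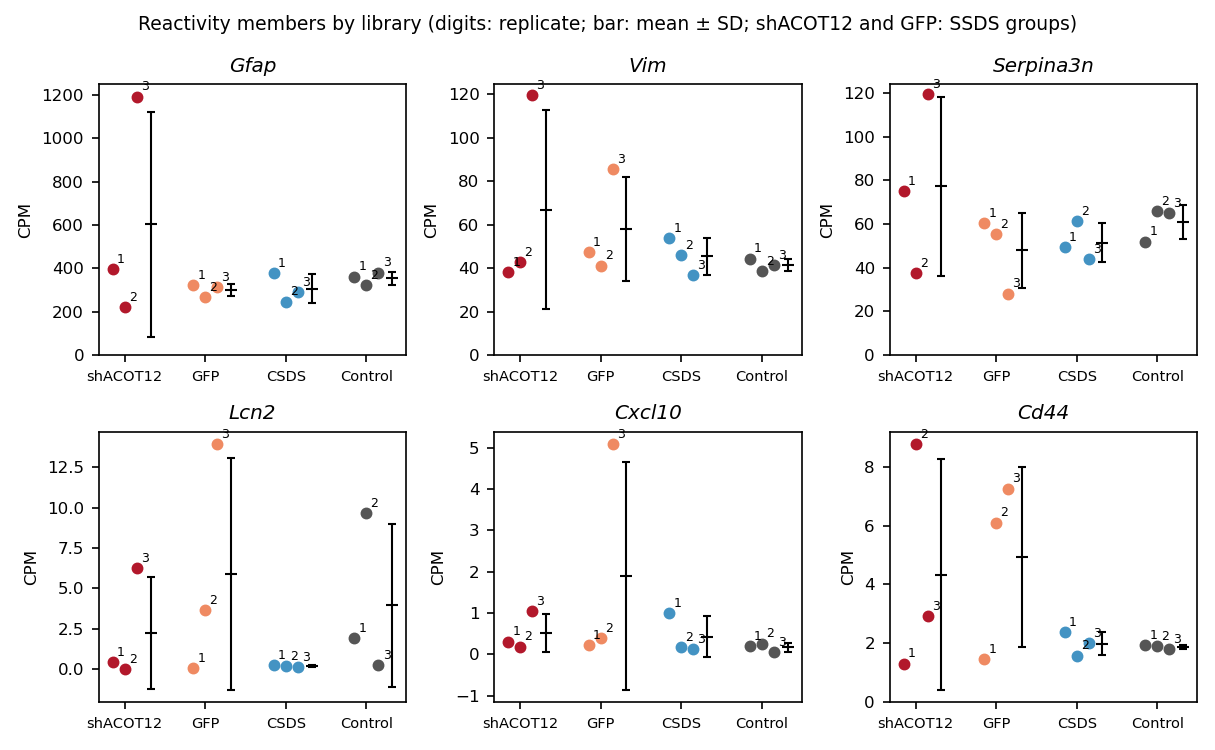
CPM of 6 reactivity members (vertical axes) in each library of the 4 groups, with the replicate number beside each point and the mean ± SD (n = 3) as a bar, which runs below 0 where a single library is high. Gfap, Vim and Serpina3n are highest in SSDS-shACOT12 3, Lcn2 and Cxcl10 in SSDS-GFP 3, and Cd44 in SSDS-shACOT12 2.

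Lcn2 encodes lipocalin, an iron-siderophore binding protein of the acute phase that astrocytes, endothelial cells and neutrophils make (ENSMUSG00000026822, chr2:32384633-32388252). It had 0.433, 0 and 6.26 CPM in SSDS-shACOT12, 0.0722, 3.68 and 14.0 in SSDS-GFP, 0.251, 0.174 and 0.121 in CSDS, and 1.92, 9.67 and 0.238 in Control. High values occurred in 3 of the groups, and the CSDS libraries were all low. The 0 counts in SSDS-shACOT12 2 allow a level of up to 0.191 CPM (3 counts, counting error only). CSDS averaged 0.182 ± 0.0652 CPM and Control 3.94 ± 5.03 CPM (SD, n = 3 each), and the log2 fold change was -4.38 ± 1.85 (SE, adjusted p = 0.849 in edgeR). Control 3 lay among the CSDS values, and without Control 2 the log2 fold change was -2.50.

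Cxcl10, an interferon-induced chemokine that attracts T cells (ENSMUSG00000034855, chr5:92346638-92348889), had 0.309, 0.191 and 1.05 CPM in SSDS-shACOT12, 0.217, 0.394 and 5.09 in SSDS-GFP, 1.00, 0.174 and 0.121 in CSDS, and 0.199, 0.260 and 0.0595 in Control. Its peak was SSDS-GFP 3, at 21.4 times the median of all libraries. That median was 0.238 CPM, and Control 1, 2 and 3 had 3, 4 and 1 counts. Both lay near the limit of detection, so the ratio and the fold changes rest on a low reference. SSDS-GFP averaged 1.90 ± 2.76 CPM and Control 0.173 ± 0.103 CPM, and the log2 fold change was 3.46 ± 1.22 (SE, adjusted p = 0.203 in edgeR). Without SSDS-GFP 3 it was 0.83, and the groups overlapped.

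Timp1, an inhibitor of matrix metalloproteases, did not have enough counts to be tested. It had 60 counts in SSDS-GFP 3 and 22 in SSDS-shACOT12 3, while every other library had 1 to 8. Ptx3, a secreted pentraxin of innate immunity, was highest in SSDS-shACOT12 3 with 3.28 CPM and ran from 0.637 to 2.12 CPM elsewhere. The peaks of Lcn2, Cxcl10 and Timp1 thus lay in SSDS-GFP 3, and those of Gfap, Vim, Serpina3n and Ptx3 in SSDS-shACOT12 3.

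Cd44, the hyaluronan receptor that reactive and white matter astrocytes and immune cells carry (ENSMUSG00000005087, chr2:102811141-102901665), had 1.30, 8.79 and 2.91 CPM in SSDS-shACOT12, 1.44, 6.10 and 7.26 in SSDS-GFP, 2.38, 1.57 and 1.99 in CSDS, and 1.92, 1.88 and 1.78 in Control. It was high in SSDS-shACOT12 2, SSDS-GFP 2 and SSDS-GFP 3 and below 3 CPM in the rest. SSDS-GFP averaged 4.94 ± 3.08 CPM and Control 1.86 ± 0.0713 CPM (SD, n = 3 each), and the log2 fold change was 1.41 ± 0.62 (SE, adjusted p = 0.305 in edgeR), with overlapping groups. Its highest library, SSDS-shACOT12 2, was the one with the lowest Gfap. Dcn, the matrix proteoglycan decorin of meningeal fibroblasts, had 106 CPM in SSDS-shACOT12 2 and 93.8 CPM in SSDS-GFP 3, the libraries with the most Cd44, and 8.60 CPM in SSDS-GFP 2 and 10.9 to 41.6 CPM elsewhere. Dcn is 1 of 14 meningeal and mural markers. Of the 12 tested, 3 lay above their 12-library mean in SSDS-shACOT12 2 and 6 in SSDS-GFP 3, against 12 in CSDS 1. Their mean deviation in these libraries was 0.007, 0.184 and 0.738 on the log2 scale, so the list did not follow Dcn. The part of meningeal fibroblasts in the Cd44 values was not tested.

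Tnc, Osmr, S1pr3 and Emp1 gave no unadjusted p under 0.05 in any comparison. The matrix glycoprotein tenascin C, Tnc, ran from 2.34 CPM in Control 2 to 9.89 CPM in SSDS-GFP 3. The oncostatin M receptor Osmr, which signals through gp130, ran from 4.19 to 9.09 CPM. The sphingosine phosphate receptor S1pr3 had 17.1 CPM in SSDS-shACOT12 3 and 6.68 to 10.8 CPM elsewhere. The membrane protein Emp1 ran from 1.15 to 3.01 CPM. Steap4, a metalloreductase, ran from 0 to 0.573 CPM and Tgm1, a transglutaminase, from 0.0663 to 0.446 CPM, and neither had enough counts to be tested. At this depth 3 counts correspond to 0.172 to 0.217 CPM, so both lay near the limit of detection.

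The promoters of reactivity genes are shown because Stat3, the factor named above, is known to bind the palindrome TTCNNNGAA, so they let its presence be read beside the levels. RefSeq promoter windows (GRCm38.p6, 250 bases before to 50 after a start) were read for 28 of the 33 members. No window was read for Aqp4, Sox9, Atp1b2, Clu and Sparcl1, so the share of members given next leaves them out. The palindrome, which reads alike on both strands and was searched with any bases at N, was in a window of 7 of the 28 genes (25%), against 9.55% of 27025 genes with a window. It was found for Gfap, Steap4, Emp1 and Tgm1 among 15 reactivity genes and for 3 of 13 identity genes. Capitals mark it below. The windows are chr11:102897151-102897450 (minus strand) for Gfap, chr5:7960222-7960521 (plus) for Steap4, chr6:135362681-135362980 (plus) for Emp1 and chr14:55713443-55713742 (minus) for Tgm1. For Cp, chr3:19956804-19957103 (plus), and Cxcl10, chr5:92348840-92349139 (minus), which had the smallest unadjusted p-values of the other reactivity genes in any comparison, no match was in the window.
Gfap: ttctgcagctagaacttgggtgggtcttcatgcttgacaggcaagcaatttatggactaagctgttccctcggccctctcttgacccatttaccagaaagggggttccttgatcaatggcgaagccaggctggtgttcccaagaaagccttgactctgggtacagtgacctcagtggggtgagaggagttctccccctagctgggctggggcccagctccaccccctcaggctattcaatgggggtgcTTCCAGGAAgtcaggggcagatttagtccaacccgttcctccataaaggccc
Steap4: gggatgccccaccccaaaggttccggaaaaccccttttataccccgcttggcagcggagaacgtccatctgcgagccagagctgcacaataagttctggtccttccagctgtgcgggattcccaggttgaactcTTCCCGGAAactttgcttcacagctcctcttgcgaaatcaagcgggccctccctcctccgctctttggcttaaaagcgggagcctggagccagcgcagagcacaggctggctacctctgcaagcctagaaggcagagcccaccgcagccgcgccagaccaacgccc
Emp1: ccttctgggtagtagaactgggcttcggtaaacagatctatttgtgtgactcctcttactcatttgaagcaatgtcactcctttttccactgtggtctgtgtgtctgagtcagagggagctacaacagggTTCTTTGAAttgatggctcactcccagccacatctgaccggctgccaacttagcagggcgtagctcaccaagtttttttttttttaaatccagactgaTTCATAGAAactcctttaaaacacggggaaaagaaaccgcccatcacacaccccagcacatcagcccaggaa
Tgm1: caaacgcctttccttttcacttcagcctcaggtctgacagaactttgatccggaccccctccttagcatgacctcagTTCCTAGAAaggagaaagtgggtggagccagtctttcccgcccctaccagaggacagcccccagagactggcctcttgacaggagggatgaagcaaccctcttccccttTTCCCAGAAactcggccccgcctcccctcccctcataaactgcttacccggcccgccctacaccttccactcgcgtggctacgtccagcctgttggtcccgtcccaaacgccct
Cp: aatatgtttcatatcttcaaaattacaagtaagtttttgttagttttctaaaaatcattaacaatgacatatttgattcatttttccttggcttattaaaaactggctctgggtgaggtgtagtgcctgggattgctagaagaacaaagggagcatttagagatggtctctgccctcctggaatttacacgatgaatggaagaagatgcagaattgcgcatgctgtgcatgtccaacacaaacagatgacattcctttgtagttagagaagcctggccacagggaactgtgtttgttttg
Cxcl10: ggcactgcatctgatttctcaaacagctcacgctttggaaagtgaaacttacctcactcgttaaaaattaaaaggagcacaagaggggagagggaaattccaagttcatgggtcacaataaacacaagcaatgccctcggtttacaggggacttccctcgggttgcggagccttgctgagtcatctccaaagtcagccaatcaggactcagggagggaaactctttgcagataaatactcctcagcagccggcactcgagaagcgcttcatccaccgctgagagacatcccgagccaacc
The palindrome began 2 bases before the start for Gfap, 116 before for Steap4, 120 and 22 before for Emp1, and 173 and 64 before for Tgm1. Of these 4 genes, Gfap had the highest level and Steap4 and Tgm1 the lowest of all members per length, so the genes with a match differed widely in level. Emp1 was highest in CSDS 1 and Gfap in SSDS-shACOT12 3, while Steap4 and Tgm1 had too few counts to rank libraries. A match is a description of these letters only.

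Cp encodes ceruloplasmin, the copper-carrying ferroxidase through which astrocytes export iron, and it is made by choroid plexus too (ENSMUSG00000003617, chr3:19957054-20009145). It had 8.04, 7.89 and 8.30 CPM in SSDS-shACOT12, 8.16, 10.0 and 9.55 in SSDS-GFP, 12.2, 6.62 and 7.30 in CSDS, and 18.1, 20.6 and 12.1 in Control. The Control libraries were the highest, apart from Control 3, which was level with CSDS 1. SSDS-GFP averaged 9.25 ± 0.977 CPM and Control 16.9 ± 4.34 CPM (SD, n = 3 each), or -0.87 ± 0.24 on the log2 scale (SE, adjusted p = 0.136 in edgeR). CSDS averaged 8.69 ± 3.02 CPM against the same Control libraries, or -0.96 ± 0.24 on the log2 scale (SE, adjusted p = 0.849 in edgeR). The DESeq2 Wald test called Cp in SSDS-GFP against Control, with an adjusted p of 0.0292.

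Choroid plexus markers were high in Control 1 and Control 2 too. Their summed level was 86.7 to 154 CPM in SSDS-shACOT12, 113 to 187 in SSDS-GFP and 114 to 138 in CSDS, and it was 836, 292 and 147 CPM in Control 1, 2 and 3. Of the 12 listed markers, 0 to 3 had no count in a given library. The sum did not follow all markers alike. CSDS 3 had a sum of 128 CPM, but 1.03 CPM of Ttr and the lowest mean deviation of the tested markers, -1.08 on the log2 scale. The 6 tested markers all had fitted levels below Control in SSDS-GFP and in CSDS. Ttr, a thyroid hormone carrier made by this tissue, had 5.12 to 16.6 CPM in SSDS-GFP and 1.03 to 3.63 CPM in CSDS, against 504, 140 and 7.91 CPM in Control 1, 2 and 3. Without Control 2 the log2 fold change of Cp was -0.70 in SSDS-GFP and -0.79 in CSDS, and without Control 1 it was -0.82 in SSDS-GFP and -0.91 in CSDS. CSDS 1 had 12.2 CPM of Cp and 3.63 CPM of Ttr, and Control 3 had 12.1 CPM of Cp and 7.91 CPM of Ttr. The part of choroid plexus RNA in the Cp values was not tested.

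**Figure D4:**
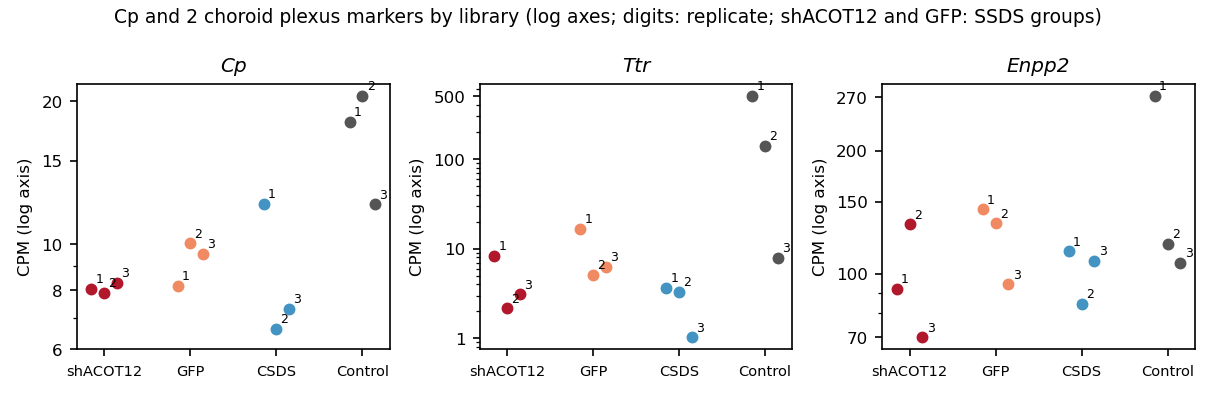
CPM of Cp and of the choroid plexus markers Ttr and Enpp2 on log axes, in each library of the 4 groups with the replicate number beside each point. Control 1 and Control 2 are high for Cp and Ttr, while Control 3 has 12.1 CPM of Cp and 7.91 CPM of Ttr.

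Identity and reactivity genes differed in how far single libraries strayed. Of the 216 identity values, 206 (95.4%) lay within 0.5 log2 units of the gene's mean, against 90 of 144 reactivity values (62.5%) and 85.6% of values over all tested genes. The median SD within groups was 0.21 for identity genes, 0.55 for reactivity genes and 0.26 for all genes on the log2 scale. By group, the reactivity median was 0.87 in SSDS-shACOT12, 0.48 in SSDS-GFP, 0.29 in CSDS and 0.34 in Control, while the identity median was 0.29 in SSDS-shACOT12, 0.20 in SSDS-GFP, 0.07 in CSDS and 0.16 in Control. Over all genes it was 0.31 in SSDS-shACOT12, 0.25 in SSDS-GFP, 0.16 in CSDS and 0.16 in Control, so the SSDS groups had the larger spread in each class. Among the reactivity genes the SD within groups ran from 0.27 for S1pr3 and 0.31 for Cp to 2.44 for Lcn2. That of Gfap was 0.64 in all, with 1.24 in SSDS-shACOT12, 0.14 in SSDS-GFP, 0.31 in CSDS and 0.12 in Control. The part of low counts in these spreads was not tested.

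The library SSDS-shACOT12 3 held the highest value of 5 of the 15 reactivity genes (Gfap, Vim, Serpina3n, S1pr3 and Ptx3) and of 5 of the 18 identity genes (Aldh1l1, Aldoc, Ntsr2, Atp1b2 and Clu). It also held the highest value of 20.1% of all tested genes. At the same time it was lowest for the identity genes Slc1a3, Glul and Slc4a4, and 17.4% of all genes were lowest there. Relative to the mean of the 12 libraries its identity median was -0.02 and its reactivity median 0.97 on the log2 scale. The high Gfap level there thus stood beside identity genes that were high and others that were low. SSDS-GFP 3 held the highest value of 4 reactivity genes (Lcn2, Timp1, Cxcl10 and Tnc), against 8.63% of all genes.

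The identity genes divided in the 3 libraries that stood apart, which were picked after seeing the data. Aldh1l1, Aldoc, Ntsr2, Atp1b2, Mlc1 and Clu lay above their 12-library median in all 3, and Aqp4, Slc1a2, Gja1, Sox9, Glul and Slc4a4 lay below it in all 3. The first set had a median gene length of 3350 bases (2801 to 4516), the second of 7670 bases (3323 to 13133). Over all tested genes, 26.3% were above in all 3 libraries, with a median of 3278 bases, and 23.6% below, with 5386 bases. When all genes were cut into 8 bins by length, the median deviation of the longest bin minus that of the shortest was -0.21 in SSDS-shACOT12 1, -0.40 in SSDS-shACOT12 3, -0.26 in SSDS-GFP 3 and 0.31 in Control 3, on the log2 scale. With each library's trend over length removed, Aqp4, Sox9, Glul and Slc4a4 were still below their 12-library mean in all 3 libraries, and Aldh1l1, Aldoc, Atp1b2, Mlc1 and Clu above it. Slc1a2 then lay at -0.16 in SSDS-shACOT12 1, 0.23 in SSDS-shACOT12 3 and 0.10 in SSDS-GFP 3, and Gja1 at -0.35, -0.14 and 0.09 in the same libraries, so neither was below in all 3. Ntsr2 was at 0.06, 0.52 and 0.00. The Gfap log2 fold change for SSDS-shACOT12 against SSDS-GFP was 0.99 after this step.

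**Figure D5:**
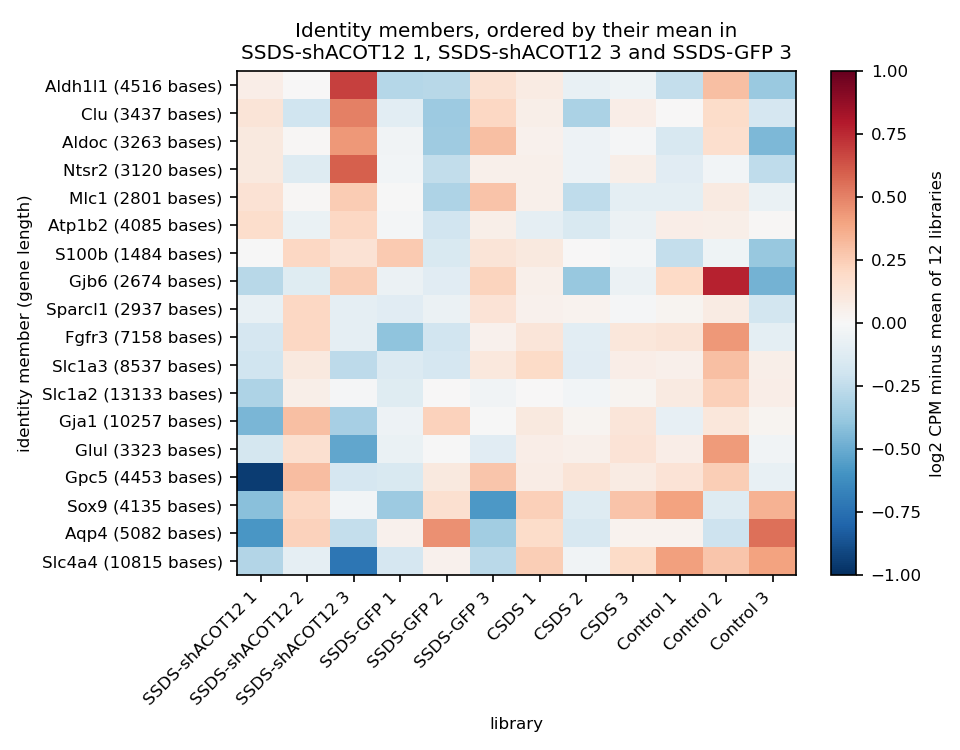
Log2 CPM minus the mean of the 12 libraries (colour, from -1 to 1) for the 18 identity members (rows, with gene length in bases) in each library (columns), ordered by their mean in SSDS-shACOT12 1, SSDS-shACOT12 3 and SSDS-GFP 3. The upper rows are higher and the lower rows lower in these libraries, and CSDS libraries stay near 0.

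Among the libraries left out in turn, SSDS-shACOT12 2, which did not stand apart on the first component, gave the most calls for the knockdown when left out. Without it, 985 genes and 2 members were called for SSDS-shACOT12 against SSDS-GFP. For scale, the main fit tested 16915 genes, with 18 identity and 12 reactivity members among them. The called members were Gfap at 1.39 and Gja1 at -0.47 ± 0.12 (SE, adjusted p = 0.0425 in edgeR), on the log2 scale. In that fit SSDS-shACOT12 consists of libraries 1 and 3, which have the lowest mitochondrial shares. Gja1 had 130, 220 and 142 CPM in SSDS-shACOT12 and 172, 209 and 177 CPM in SSDS-GFP, so library 2 was above every SSDS-GFP library and the other two below.

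Further astrocyte genes were listed from general knowledge of the cell type. Of 32, all tested, 3 had an unadjusted p under 0.05 for SSDS-shACOT12 against SSDS-GFP (1 higher and 2 lower), 5 for SSDS-GFP against Control (4 higher, 1 lower) and 5 for CSDS against Control (4 higher, 1 lower), with 0 called each time. Of all tested genes, 4.53%, 15.2% and 5.87% had such a p in these comparisons, in the same order. Their median log2 fold change was 0.03 for SSDS-shACOT12 against SSDS-GFP, where it was also 0.03 for the identity members and 0.01 for all genes. For SSDS-GFP against Control the medians were -0.05 for the list, -0.08 for the identity members and 0.01 for all genes, and for CSDS against Control 0.04, -0.08 and 0.00. Hes5, a Notch target, had 6.50, 5.38 and 14.9 CPM in SSDS-GFP, 8.83, 7.55 and 8.81 in CSDS and 4.71, 3.83 and 4.16 in Control, with adjusted p = 0.178 for SSDS-GFP and 0.849 for CSDS against Control in edgeR. Slc25a18, a mitochondrial glutamate carrier, had 50.4, 41.9 and 70.7 CPM in SSDS-GFP, 57.6, 50.2 and 48.4 in CSDS and 40.9, 38.3 and 37.3 in Control. Both were above every Control library in SSDS-GFP and CSDS alike. Etnppl, an astrocyte phospholyase, had 11.3, 9.93 and 10.4 CPM in CSDS against 31.6, 49.3 and 10.4 in Control, where 2 libraries were high.

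Of 30 other genes known to be raised in reactive astrocytes, 28 were tested, and 3 had an unadjusted p under 0.05 for SSDS-shACOT12 against SSDS-GFP (0 higher, 3 lower), 7 for SSDS-GFP against Control (6 higher, 1 lower) and 3 for CSDS against Control (2 higher, 1 lower), beside the same 4.53%, 15.2% and 5.87% of all genes. Their median log2 fold change for SSDS-shACOT12 against SSDS-GFP was 0.01, beside 0.17 for the reactivity members. The median of the reactivity members was -0.11 without SSDS-shACOT12 3 and 0.44 without SSDS-GFP 3. For SSDS-GFP against Control it was 0.34 beside 0.02, and for CSDS against Control 0.04 beside -0.07. The reactivity median for SSDS-GFP against Control was -0.16 without SSDS-GFP 3 and 0.39 without SSDS-GFP 2, so its sign turned on single libraries. Relative to the 12-library mean, the other reactive genes averaged -0.10, -0.11 and 0.70 in SSDS-GFP 1, 2 and 3 and -0.11, -0.01 and -0.11 in Control 1, 2 and 3 on the log2 scale. Within SSDS-GFP they were thus high in SSDS-GFP 3, a library that stood apart, and near Control in SSDS-GFP 1 and 2. In SSDS-shACOT12 1, 2 and 3 they averaged -0.15, -0.30 and 0.49, so SSDS-shACOT12 3 was high as well. The summed level of this list was 520 CPM in SSDS-shACOT12 3 and 489 CPM in SSDS-GFP 3. Hspb1, a small heat shock protein, was the gene called among them. It was higher in SSDS-GFP, with 13.0, 10.5 and 11.6 CPM against 3.12, 2.47 and 4.46 CPM in Control, which is 1.80 ± 0.23 on the log2 scale (SE, adjusted p = 0.00702 in edgeR). Hspb1 also lay above every Control library in SSDS-shACOT12, at 7.61, 9.36 and 8.92 CPM, and in CSDS, at 6.64, 7.26 and 5.07 CPM. For CSDS against Control its log2 fold change was 0.91 ± 0.23 (SE, adjusted p = 0.849 in edgeR). S100a10, an annexin partner, had 27.3, 19.4 and 38.7 CPM in SSDS-GFP and 12.2, 16.0 and 12.1 in Control (adjusted p = 0.130 in edgeR). Srgn, Iigp1 and Icam1 had the smallest p-values of the list for SSDS-shACOT12 against SSDS-GFP, and all had their highest SSDS value in SSDS-GFP 3. Srgn had 4.95, 6.81 and 7.37 CPM in SSDS-shACOT12 and 5.92, 8.01 and 32 in SSDS-GFP.

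Of 24 genes of gp130, Jak and Stat3 signalling, 20 were tested, and 0 were called in any comparison. An unadjusted p under 0.05 was found for 2 in SSDS-shACOT12 against SSDS-GFP, for 3 in SSDS-GFP against Control and for 2 in CSDS against Control, beside 4.53%, 15.2% and 5.87% of all genes. Stat3 itself had 34.1, 26.7 and 33.7 CPM in CSDS and 40.4, 42.2 and 45 CPM in Control (log2 fold change -0.43 ± 0.14, SE, adjusted p = 0.849 in edgeR). The groups did not overlap. Junb, an immediate early gene among the targets of this pathway, had 106, 73.2 and 81.9 CPM in SSDS-GFP and 44.8, 41.5 and 55.3 CPM in Control (0.88 ± 0.24, SE, adjusted p = 0.136 in edgeR). It was above all Control libraries in each SSDS-GFP library. The mean deviation of the 20 genes was 0.374 in SSDS-GFP 3, 0.388 in SSDS-shACOT12 3 and -0.163 to 0.103 elsewhere, on the log2 scale. In these 2 libraries 12 and 13 of them lay above their 12-library mean. Socs3 had 9.84 and 5.20 CPM there, and 0.535 to 2.25 elsewhere. The untested Il6 had 128 and 14 counts there, and Osm 35 and 9, against at most 5 and 4 elsewhere. The part of this pathway in the reactivity peaks was not tested.

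Markers of other cell types that make reactivity genes were read beside these values. The neutrophil genes S100a8 and S100a9 had 55 counts each in SSDS-shACOT12 3, at most 13 and 19 counts elsewhere, and 8 and 13 in SSDS-GFP 3. Ngp, Ltf and Retnlg had 10, 6 and 7 counts in SSDS-shACOT12 3, and at most 7, 2 and 1 elsewhere. Mpo was highest in SSDS-shACOT12 2 with 12 counts, and Mmp8 in SSDS-GFP 3 with 9 counts. Elane and Ly6g had 0 counts in every library, and 3 to 9 of the 12 listed markers had no count in a given library. The summed level of the 12 neutrophil markers was 17.5 CPM in SSDS-shACOT12 3, and over the groups 6.24 to 17.5 in SSDS-shACOT12, 5.20 to 8.52 in SSDS-GFP, 7.14 to 8.71 in CSDS and 6.50 to 7.38 in Control. Microglial markers summed to 402 to 529 CPM in SSDS-shACOT12, 409 to 510 in SSDS-GFP, 451 to 526 in CSDS and 428 to 499 in Control. Endothelial markers summed to 383 to 497 CPM in SSDS-shACOT12, 361 to 411 in SSDS-GFP, 405 to 507 in CSDS and 403 to 510 in Control. The 14 meningeal and mural markers summed to 241 to 354 CPM in SSDS-shACOT12, 226 to 325 in SSDS-GFP, 278 to 389 in CSDS and 246 to 280 in Control, with 0 to 2 of them at 0 counts in a library. The neuronal sum was 8957 CPM in SSDS-GFP 3 and 10320 to 11795 CPM elsewhere. The part of these cells in the Gfap, Vim, Lcn2 and Cxcl10 peaks was not tested.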

How the data were processed

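RNA of the ventral hippocampus was sequenced from 12 mouse libraries, 4 groups of 3, with groups taken from the labels. Per the submitters' processing notes, the authors aligned reads with HISAT2 2.0.5 to mm10 and counted them with featureCounts 1.5.0-p3. The authors' deposited counts are unscaled integers for 54532 genes, and 32777 of these had a count in some library. The authors' deposited FPKM values divide counts by gene length and by a library size, and the deposited gene length is in bases. Strand setting, annotation release and filters are not given in the sources used here, so overlapping antisense genes cannot be told apart. All 33 members were found in GENCODE M21, 32 with the same coordinates.

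From the counts, CPM and tests were made with edgeR 4.0.16 in R 4.3.3. Genes passed filterByExpr (minimum count 10, minimum total 15), which left 16915, and libraries were scaled by TMM. A quasi-likelihood model with group as its factor was fitted to all 12 libraries, and p-values are 2-sided with Benjamini-Hochberg adjustment over all tested genes at 0.05. SE of a log2 fold change is the fold change over the square root of its F statistic, intervals are 95%, and errors of CPM are SD. The script was tested on simulated data. Library totals of 14656714 to 17694570 counts make 3 counts worth 0.172 to 0.217 CPM.

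The members and lists were chosen with earlier results of these data known. Every member was accounted for. Fold change, SE and p were given where the unadjusted p was under 0.05, and for Gfap in every comparison; all 12 values were given for those genes and for Vim, Aqp4, Slc1a2, Slc1a3, Aldh1l1, Lcn2 and Serpina3n. From the other lists, called genes or up to 3 genes with the smallest unadjusted p under 0.05 were named, and promoters of at most 8 reactivity members, those with the palindrome first. The paired values of Aldh1l1 and Slc4a4, the pair directions of other members, and Dcn were added after their values were seen. So were Ngp, Ltf, Retnlg, Mpo, Mmp8, Socs3, Il6, Osm, Cebpd, Il11, Cntf, Jak2 and Lifr.

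What a shared replicate number marks is not in the labels. Deviations from the group means of same-numbered SSDS-shACOT12 and SSDS-GFP libraries correlated at 0.196 to 0.419, all 3 over the bound of 0.1, against -0.013 to 0.047 for CSDS and Control and -0.259 to -0.063 for SSDS-GFP and Control. Differently numbered libraries of the SSDS groups correlated at -0.383 to -0.018. In other groups some differently numbered libraries passed the bound too, such as SSDS-GFP 3 and Control 2 at 0.279. Passing it therefore does not by itself mark a pair. Alternatives were DESeq2 1.42.0 size factors and its Wald test, limma 3.58.1 trend on log2 FPKM with 0.1 or 1 added, no filter, 50 counts in 3 libraries, mitochondrial genes left out, 6 libraries, the replicate block and each library left out. Chosen after seeing the data were leaving out SSDS-GFP 3 with SSDS-shACOT12 3, and subtracting from every library its lowess trend over gene length (span 0.3).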

Additional observations from a re-analysis of the deposited data

How the results depend on the processing

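Single-gene fold changes were followed through the alternatives for Gfap, Lcn2, Cp, S100b, Slc4a4, Cd44 and Cxcl10, and none changed direction. For other members, only fits with a library left out and the replicate block on the 6 SSDS libraries were read. Fold changes of named genes outside the members were read in the main fit only. With no filter on low counts, 108 genes and 1 member (Gfap, adjusted p = 0.00134 in edgeR) were called for SSDS-shACOT12 against SSDS-GFP, 608 genes and 3 members for SSDS-GFP against Control (Cd44, Cp and Cxcl10) and 132 genes and 2 members for CSDS against Control (Lcn2 and Cp); members with an unadjusted p under 0.05 then numbered 6 for SSDS-shACOT12 and 9 for SSDS-GFP. On the 6 libraries compared alone, 34 genes were called for SSDS-GFP and 84 for CSDS against Control, and such members numbered 0 for SSDS-shACOT12 and 3 for SSDS-GFP. With the replicate block on all 12 libraries, 9 genes were called for SSDS-GFP against Control, and such members numbered 3 there and 0 for SSDS-shACOT12 against SSDS-GFP; with the replicate block on 6 libraries, 0 and 87 genes were called for SSDS-GFP and CSDS, with 3 such members in SSDS-GFP. The block called no member. DESeq2 called 527 genes and 1 member (Cp) for SSDS-GFP and 6 genes for CSDS. Limma-trend with either constant left 0, 3 and 1 members at an unadjusted p under 0.05 for SSDS-shACOT12, SSDS-GFP and CSDS. Without both SSDS-GFP 3 and SSDS-shACOT12 3, chosen after seeing the data, it was 0 for SSDS-shACOT12. The share of all genes with such a p was not counted in these fits, so their member counts have no background beside them. The causes were not tested.

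Leaving out each library in turn gave 0 to 985 called genes, 0 to 2 called members and 1 to 9 members at an unadjusted p under 0.05 for SSDS-shACOT12 against SSDS-GFP, each highest without SSDS-shACOT12 2. The share of all genes with such a p was not counted for left-out libraries either. For SSDS-GFP against Control it gave 4 genes (without SSDS-GFP 1 or Control 1) to 15 genes, 3 to 7 such members and an identity median of -0.164 to 0.030. For CSDS against Control it gave 0 to 1 genes (Control 3 left out), 1 to 3 such members and an identity median of -0.132 to 0.032. Both identity medians were above 0 without Control 2 alone. With 3 libraries a group and low counts of most reactivity genes, changes within the printed errors were not detectable.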
